A study of Mus musculus with 4 samples.

Results

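Mir17hg, the host transcript of the miR-17-92 microRNA cluster, was examined together with 5 genes of the MYC network, namely Myc, Max, Mxd1, Mxi1 and Mnt. The 6 genes were picked by name and were read by 7 probes, out of 39429 probes and 20971 named genes on the array. The choice was made with results of these same arrays known, so the values below are a description. All groups were RAW 264.7 cells, an established line of macrophages from BALB/c mice transformed by Abelson leukaemia virus. Cells were left untreated, or were given Lactobacillus bulgaricus, a lactic acid bacterium of fermented milk, at a multiplicity of infection of 10 for 1, 4 or 6 h. Each group had 1 two-colour array, on which Cy5-labelled RNA pooled in equal amounts from 3 cultures met a Cy3-labelled reference mixed from the RNA of every group. The 4 arrays shared 1 slide, the dyes were never swapped, and no array was repeated, so no test was possible and no p-value is given.

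A log2 ratio is the log2 of Cy5 over Cy3, and a difference is the log2 ratio of a treated array minus that of the untreated array. A gene was called higher or lower when the difference reached 1 in size, which is a 2-fold change. Replicate spots of 227 probes, 10 spots each, gave an SD of 0.15 for a difference at 1, 4 and 6 h alike, a measure of spot error that leaves out how cultures vary. Cy5 was well above background at 49.5% to 51.8% of spots per array. In RNA from whole cultures, fewer cells with a transcript and less transcript per cell cannot be told apart.

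MYC is a transcription factor that binds E-box DNA as a dimer with MAX and raises the expression of genes for ribosome production, metabolism and cell growth. MXD1, MXI1 and MNT compete with MYC for MAX, bind the same sites and recruit SIN3 corepressors. MYC and E2F factors are known to drive the host transcript of the miR-17-92 cluster, whose microRNAs lower BIM, p21 and E2F proteins and promote growth. In macrophages the cluster has been tied to proliferation and to restraint of differentiation.

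The microRNAs are shown because they are what the measured transcript is known for; no level of a mature form is given here. The mature sequences, from RefSeq on GRCm38.p6, are written 5′ to 3′ with the seed, bases 2 to 8, in capitals, and all lie on the plus strand.
miR-17-5p, chr14:115043684-115043706: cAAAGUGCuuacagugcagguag
miR-20a-5p, chr14:115044183-115044205: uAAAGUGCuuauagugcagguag
miR-18a-5p, chr14:115043867-115043889: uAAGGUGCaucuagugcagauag
miR-19a-3p, chr14:115044048-115044070: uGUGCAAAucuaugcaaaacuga
miR-19b-3p, chr14:115044358-115044380: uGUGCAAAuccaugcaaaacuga
miR-92a-3p, chr14:115044476-115044496: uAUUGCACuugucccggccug
These 6 microRNAs carried 4 seeds. miR-17-5p and miR-20a-5p shared AAAGUGC, and miR-19a-3p and miR-19b-3p shared GUGCAAA.

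The RefSeq record that names the Mir17hg probe does not span the whole cluster. It starts inside it, and 4 of the 6 hairpins, those of miR-17, miR-18a, miR-19a and miR-20a, end 635, 443, 308 and 126 bases before its start. The miR-19b-1 hairpin has its last 2 bases in the record, and the miR-92a-1 hairpin is the 1 hairpin that lies wholly inside. The 300 bases from 250 before to 50 after that start, on the plus strand, are shown for this reason, with hairpin bases in capitals, all of miR-20a (107 bases) and miR-19b-1 (87 bases) and the first 13 of the 80 bases of miR-92a-1.
Mir17hg record start, chr14:115044140-115044439: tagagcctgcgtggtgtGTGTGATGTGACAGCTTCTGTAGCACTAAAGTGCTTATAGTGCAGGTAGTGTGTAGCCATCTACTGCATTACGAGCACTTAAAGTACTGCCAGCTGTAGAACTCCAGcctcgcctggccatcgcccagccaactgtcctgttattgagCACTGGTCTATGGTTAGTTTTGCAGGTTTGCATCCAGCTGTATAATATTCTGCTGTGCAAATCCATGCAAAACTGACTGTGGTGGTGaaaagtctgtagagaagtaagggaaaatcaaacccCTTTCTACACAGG
The window is therefore cluster sequence rather than the promoter of the primary transcript. The probe A_55_P2347976 is assigned to that record by its accession. Its sequence was not used here, so which bases of the record it matches was not determined, and no position is given for it.

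Mir17hg was lower in bacteria-treated cells at 4 and 6 h, and had the lowest difference of all 10309 measured genes at 6 h. Its log2 ratio was 0.64 in untreated cells, and 0.34, -0.67 and -1.93 at 1, 4 and 6 h. The differences were -0.30, -1.31 and -2.56 at 1, 4 and 6 h, so the gene was called lower at 4 h and 6 h and not at 1 h. The 6 h difference corresponds to a level 5.92-fold lower than in untreated cells. The 4 h array stood at -1.01 relative to the 1 h array, and the 6 h array at -1.25 relative to the 4 h array, both larger in size than the 1 h difference. Counted from the lowest difference, the gene ranked 237 among 10368 genes at 1 h, 8 among 10337 at 4 h and 1 among 10309 at 6 h.

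**Figure D1:**
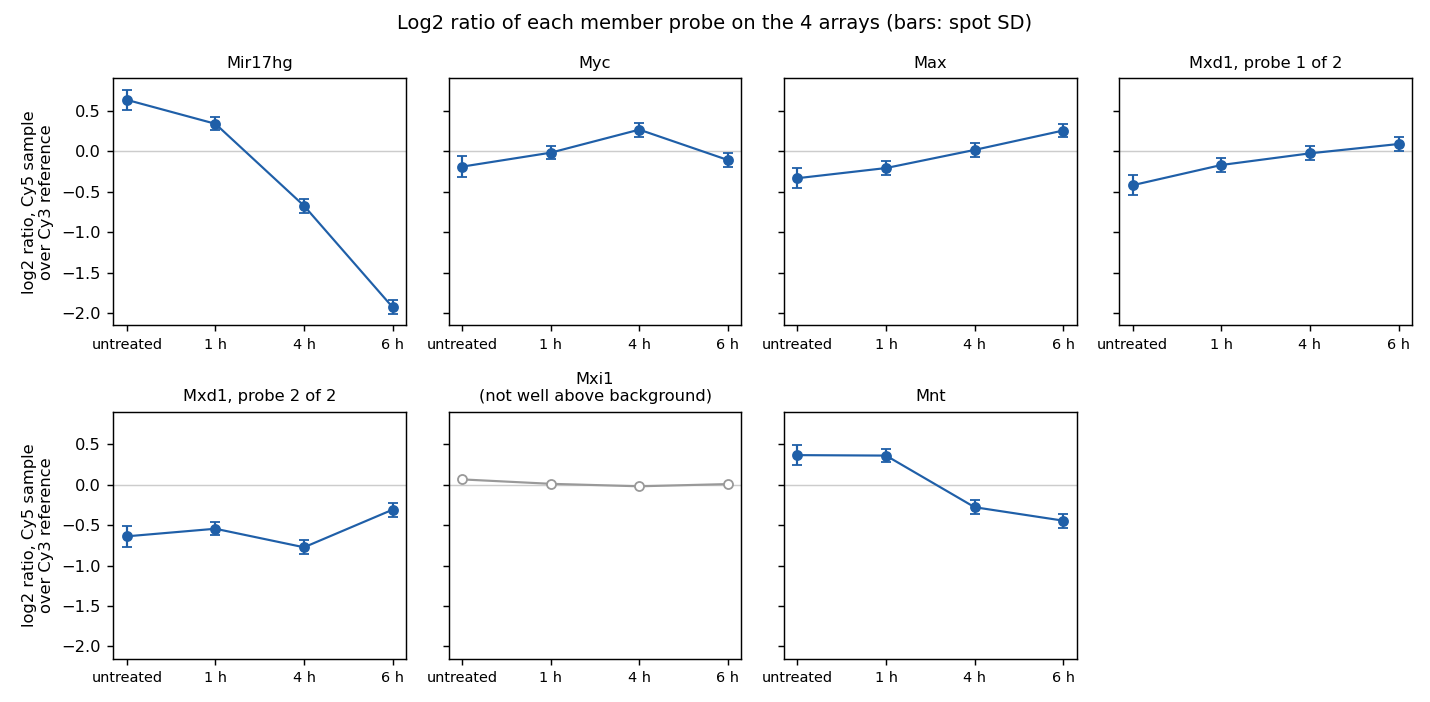
Log2 ratio of Cy5 over Cy3 for each of the 7 probes, plotted against group (untreated, then 1, 4 and 6 h), with a point per array and bars for the SD of replicate spots; Mxi1, open grey circles, was not well above background and has no bar. Mir17hg goes down to -1.93 at 6 h, Max and the first Mxd1 probe lie higher at each later time, and Mnt is lower at 4 and 6 h.

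For Mir17hg the Cy5 channel, which holds the RNA of the cells, moved most. The processed Cy5 signal, in the scanner's units, was 725 in untreated cells and 693, 264 and 40.5 at 1, 4 and 6 h, while the processed Cy3 signal of the reference was 441, 530, 534 and 559. The 6 h Cy5 signal was 5.59% of the untreated one. In normalized channels taken alone, Cy5 moved by -0.25, -1.21 and -2.33 on the log2 scale and Cy3 by 0.04, 0.10 and 0.23 at 1, 4 and 6 h. The reference spots lay close together while the cells' spots spread out.

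**Figure D2:**
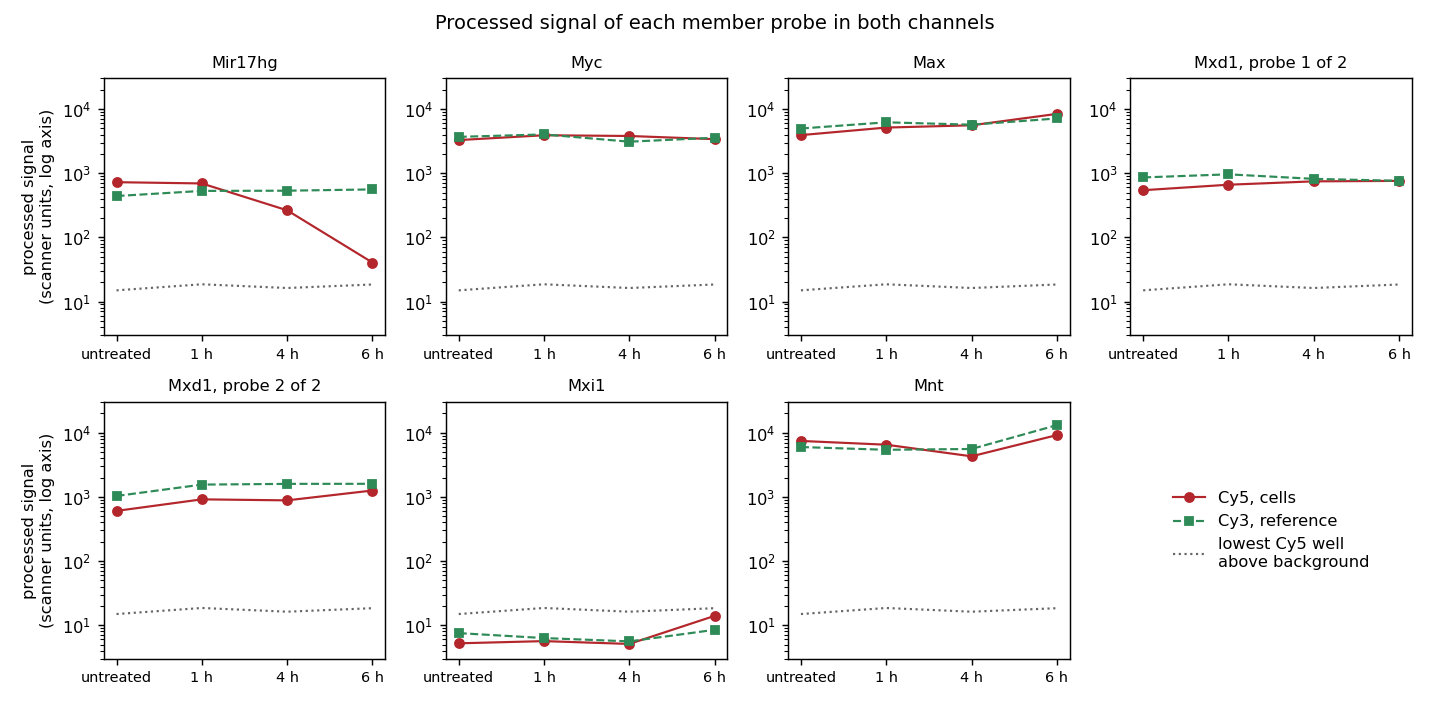
Processed signal on a log axis for each of the 7 probes, with Cy5 of the cells as red circles and Cy3 of the reference as green squares, against group (untreated, then 1, 4 and 6 h). The dotted line is the lowest Cy5 signal well above background on that array. The Cy5 line of Mir17hg drops to 40.5 at 6 h, where the dotted line is at 18.4, while its Cy3 line stays between 441 and 559.

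At 6 h the Mir17hg spot was still well above background, but dim. Its uncorrected Cy5 brightness was 63 against a local background of 31, where the untreated spot had 736 against 27. It stood at the 10.5th percentile of Cy5 among spots well above background on the 6 h array, at the 40.9th on the 4 h array, at the 55.0th on the 1 h array and at the 56.6th on the untreated array. The scanner software's own error of the log2 ratio was 0.41 at 6 h, against 0.22 on the untreated array. The size of the 6 h difference depended on the processing. It ranged from -4.50, or 22.7-fold lower, in the deposited ratios to -2.16, or 4.48-fold lower, with scaling between arrays. In all 10 alternatives tried the gene was called lower at 4 and 6 h. Not all of them could move it, since it has 1 probe, well above background on every array. The deposited ratios also repeat the ratio of the processed signals. At 1 h the value ranged from -0.33 to 0.41, the last with median centring in place of loess, under which the median of all genes stood at 0.86.

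The reference gave a further view of these spots, since it holds RNA of all 4 groups. The mean of a gene's 4 linear ratios, from the scanner's processed signals, is near 1 when the reference holds the groups in even shares. It is also near 1 for a gene that hardly changes, whatever the shares. Over 10107 genes measured on all 4 arrays its median was 0.998, with 79.0% of genes between 0.8 and 1.25. The scanner's dye-normalized log10 ratios had a median of 0.0 on every array, so that median cannot tell what shares the reference held. Reg3b, an intestinal marker with a 1 h difference of 4.18, stood at 0.498. Mir17hg stood at 0.880, Myc at 1.01, Max at 0.944, Mnt at 0.978 and Mxd1 at 0.718. Mxd1 was the 1 measured member outside that range, and both its probes had more processed Cy3 than Cy5 signal on every array.

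Of the 5 network genes Myc, Max, Mxd1 and Mnt were well above background on every array and none of them was called at any time, while Mxi1 was not measured. Counting Mir17hg, the 5 measured members held 0 calls at 1 h, 1 at 4 h and 1 at 6 h, where 0.376%, 0.455% and 0.922% of all measured genes were called in either direction. The shares called lower were 0.0482% at 1 h, 0.213% at 4 h and 0.466% at 6 h, and the shares called higher were 0.328%, 0.242% and 0.456%. The members were chosen on these contrasts, so nothing is read from their counts. The median difference of the 5 was 0.13, 0.13 and 0.08 at 1, 4 and 6 h, beside 0.06, 0.00 and -0.01 for all measured genes.

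Myc, read by 1 probe (A_52_P108346), was not called at any time. Its log2 ratio was -0.19 in untreated cells and -0.02, 0.27 and -0.11 at 1, 4 and 6 h, which gave differences of 0.17, 0.46 and 0.08. The processed Cy5 signal was 3285, 3904, 3804 and 3394 in untreated cells and at 1, 4 and 6 h. The Cy3 signal was 3687, 4024, 3102 and 3571 on the same arrays. The 4 h value was the highest of the 4 ratios, and the reference spot was dimmest on that array. In Cy5 alone Myc moved by 0.05, 0.08 and -0.11, and Cy3 alone moved by -0.12, -0.38 and -0.19. Spot brightness shared by both channels cancels in the ratio but not in a single channel. Whether such brightness accounts for the Cy3 value at 4 h was not tested. Without loess the 1 h difference of Myc read 1.17 and that of Max 1.15, against a median of 0.86 for all genes.

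Max encodes the shared partner of MYC, MXD1, MXI1 and MNT. Its probe (A_55_P1962801) had log2 ratios of -0.33 in untreated cells and -0.21, 0.02 and 0.26 at 1, 4 and 6 h. The ratio was higher at each later time, and the differences of 0.13, 0.35 and 0.59 stayed below the 2-fold rule. The processed Cy5 signal was 3926, 5145, 5583 and 8405 and the Cy3 signal was 4973, 6215, 5703 and 7131 in untreated cells and at 1, 4 and 6 h. Both channels were brightest at 6 h, and Cy5 alone stood 0.93 above untreated cells there while Cy3 alone stood 0.34 above. The 6 h difference was 3.88 times the spot SD and lay at the 98.1th percentile of measured genes. The scanner software's own error of the log2 ratio was 0.21 on the 6 h array.

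Mxd1, whose product pairs with MAX and represses MYC sites in differentiating cells, had 2 probes, which stood on opposite sides of 0 at 4 h. The first (A_51_P490795) had log2 ratios of -0.42 in untreated cells and -0.17, -0.03 and 0.09 at 1, 4 and 6 h. The second (A_55_P2025248) had -0.64 in untreated cells and -0.54, -0.77 and -0.31 at 1, 4 and 6 h. At 4 h the first probe thus stood 0.39 above untreated cells and the second stood at -0.14. At 6 h both were above untreated cells, by 0.51 and 0.33, and the mean over the probes was 0.17, 0.13 and 0.42 at 1, 4 and 6 h. For the second probe Cy3 alone was higher by 0.35, 0.59 and 0.59 on the treated arrays than on the untreated array. For the first probe it moved by -0.15, -0.02 and -0.10.

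Mxi1, another MAX partner of the same repressor family, gave no value. Its 1 probe (A_55_P1987096) was not well above background in either channel on any array, with processed Cy5 signals of 5.23, 5.66, 5.12 and 14.0 in untreated cells and at 1, 4 and 6 h. The lowest Cy5 signals well above background on those arrays were 15.0, 18.6, 16.3 and 18.4.

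Mnt, a MAX-binding repressor present in growing and resting cells, had the lowest differences of the measured network genes at 4 and 6 h. Its probe (A_52_P477431) had log2 ratios of 0.37 in untreated cells and 0.36, -0.28 and -0.44 at 1, 4 and 6 h. The differences were -0.01, -0.64 and -0.81, and the 4 and 6 h values, at -4.23 and -5.33 spot SDs, did not reach the rule. The scanner software's own error of the log2 ratio was 0.21 on a single array at 4 h and at 6 h. The channels differed between those times. The processed Cy5 signal was 7454, 6510, 4293 and 9191 in untreated cells and at 1, 4 and 6 h, and the Cy3 signal was 5987, 5424, 5587 and 13141. At 4 h Cy5 alone moved by -1.10 and Cy3 alone by -0.46. At 6 h Cy5 alone moved by 0.05 and Cy3 alone by 0.86. Both processed signals were brightest at 6 h. Whether spot brightness shared by the channels accounts for this was not tested.

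**Figure D3:**
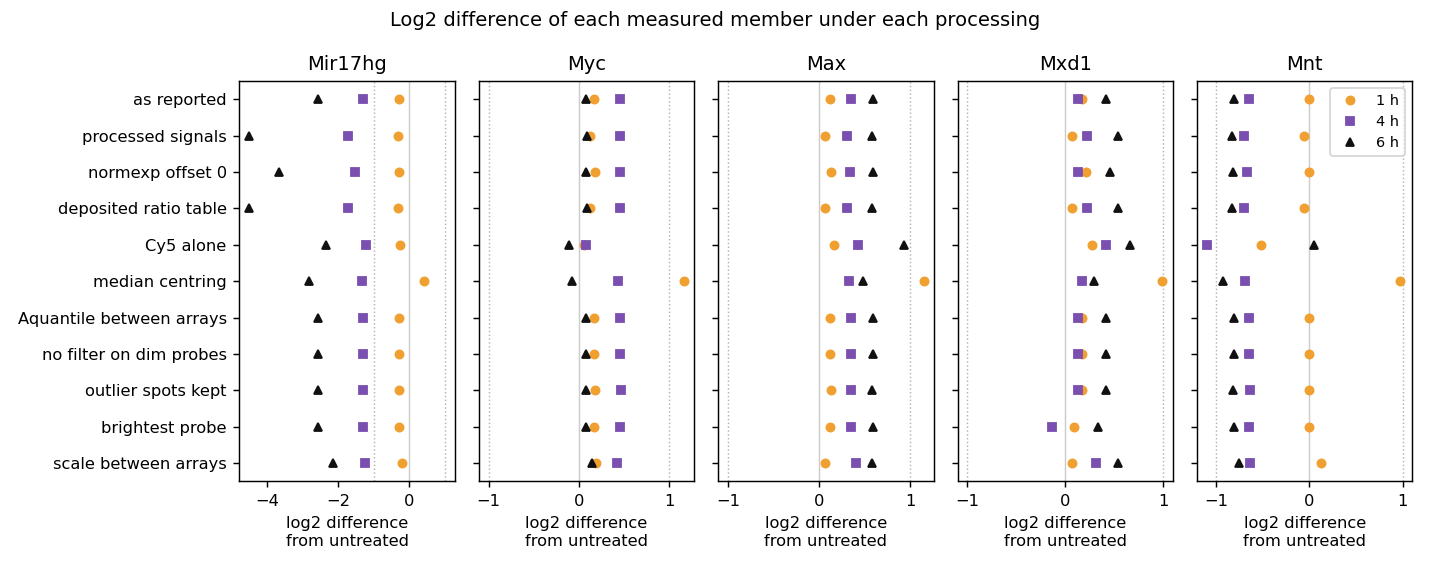
Log2 difference from untreated cells of the 5 measured members at 1 h (circles), 4 h (squares) and 6 h (triangles), with a row for each way of processing; dotted lines mark the 2-fold rule. Mir17hg stays beyond the rule at 4 and 6 h in every row, Mnt at 6 h stands at 0.05 in Cy5 alone, and the 1 h values of all 5 genes shift upward with median centring.

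Around these members, 124 genes in 9 lists covered the rest of the pathway, and 101 were measured at 6 h. The lists were written from general knowledge with earlier results of these arrays known. None of the 102 measured at 1 and at 4 h was called, and 1 of 101 was called at 6 h, which is 0.990% against 0.922% of all measured genes. The 1 gene was Pim1, a kinase that phosphorylates and stabilizes MYC, with differences of 0.37, 0.57 and 1.10 at 1, 4 and 6 h and Cy5 alone at 0.35, 0.74 and 1.37. The other 10 measured genes of MYC turnover had 6 h values between -0.62 and 0.22. Skp2, a ubiquitin ligase subunit, was the lowest of them at -0.62, with Cy5 alone at 0.40 and Cy3 alone at 1.02. Fbxw7, the ligase subunit that marks phosphorylated MYC for destruction, stood at 0.04, 0.13 and -0.22, and the ligase Huwe1 at 0.07, 0.41 and -0.11.

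Of the other MYC and MLX family genes 9 of 11 were measured, none was called, and the median difference was 0.02, 0.02 and -0.03 at 1, 4 and 6 h. Mycn, the MYC paralogue of embryonic and neural cells, stood at -0.03, -0.20 and -0.61. Mxd3, a further MAX-binding repressor, stood at -0.08, 0.24 and 0.41. Mlx, the MAX-like partner of the glucose-sensing MLXIP proteins, stood at 0.02, -0.07 and 0.09, and Mlxip at 0.18, 0.00 and -0.24. In the MYC cofactor list 0 of 10 measured genes were called at 6 h. Trrap, the scaffold of acetyltransferase complexes, stood at 0.11, 0.23 and -0.04, Kat5, an acetyltransferase in such a complex, at -0.04, -0.35 and -0.37, and the helicase Ruvbl1 at 0.07, -0.02 and -0.13. Wdr5, a chromatin adaptor that binds MYC, had the highest 6 h value of this list at 0.21.

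None of the measured known targets of MYC, activated or repressed, was called at any time. Among 21 measured activated targets 16 lay above 0 at 1 h, and 15 and 16 lay below 0 at 4 h and 6 h. Of all measured genes 29.4%, 49.1% and 52.1% lay below 0 at 1, 4 and 6 h. The median differences were 0.08, -0.05 and -0.10, beside 0.06, 0.00 and -0.01 for all genes. Odc1, the first enzyme of polyamine synthesis, stood at 0.08, -0.10 and 0.08, and Nop56, a nucleolar protein of ribosome production, at 0.32, 0.07 and -0.22. The nucleolar chaperone Npm1 stood at -0.05, -0.26 and -0.20, and Eif4e, the cap-binding factor, at 0.16, 0.17 and 0.30. Hspd1, the mitochondrial chaperonin, was the lowest at 6 h with -0.79, -0.77 and -0.88 at 1, 4 and 6 h, while Cy5 alone moved by -0.39, -0.30 and -0.72. Of 8 measured repressed targets 5 lay above 0 at 6 h, and the median was 0.07, -0.22 and 0.03. The cell cycle inhibitors Cdkn1a, Cdkn1b and Cdkn2b stood at -0.12, 0.30 and -0.22 at 6 h. Cebpa, a myeloid transcription factor, had the highest 6 h value of the repressed targets at 0.46, and the TGF-beta receptor gene Tgfbr2 the lowest at -0.37.

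Of 18 measured genes that the literature names as targets of the miR-17-92 microRNAs, 0 were called at any time, and 11, 7 and 8 lay above 0 at 1, 4 and 6 h. The median was 0.05, -0.11 and -0.02 at 1, 4 and 6 h, against 0.06, 0.00 and -0.01 for all genes. Bcl2l11, which encodes the death factor BIM, stood at 0.13, -0.42 and -0.07. Cdkn1a, which encodes p21, stood at 0.08, -0.44 and -0.12. The kinase gene Map3k8 was highest at 6 h with 0.29, and E2f2 was lowest with -0.60, with -0.05 in Cy5 alone and 0.55 in Cy3 alone. These are transcript levels, and effects on translation are not read by an array.

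Factors known to act on the Mir17hg promoter showed no called change in 9 measured genes. E2f1 stood at -0.09, -0.14 and -0.02 at 1, 4 and 6 h. E2f3 stood at 0.09, -0.11 and -0.53, and in Cy5 alone at 0.17, -0.20 and -0.68. Trp53, which encodes p53, a repressor of the cluster, stood at 0.45, 0.36 and 0.43, the highest 6 h value of these genes. E2f2, at -0.60, and Mycn, at -0.61, were the lowest there. Among 13 measured proliferation genes 12 lay below 0 at 4 h, and 11 did so at 6 h, beside the shares of all genes given above, and none was called. Their median was 0.03, -0.15 and -0.27 at 1, 4 and 6 h. Mki67, a marker of cycling cells, stood at 0.06, -0.19 and -0.68, Pcna, the DNA clamp, at -0.33, -0.28 and -0.39, and the topoisomerase Top2a at 0.04, -0.11 and 0.05.

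**Figure D4:**
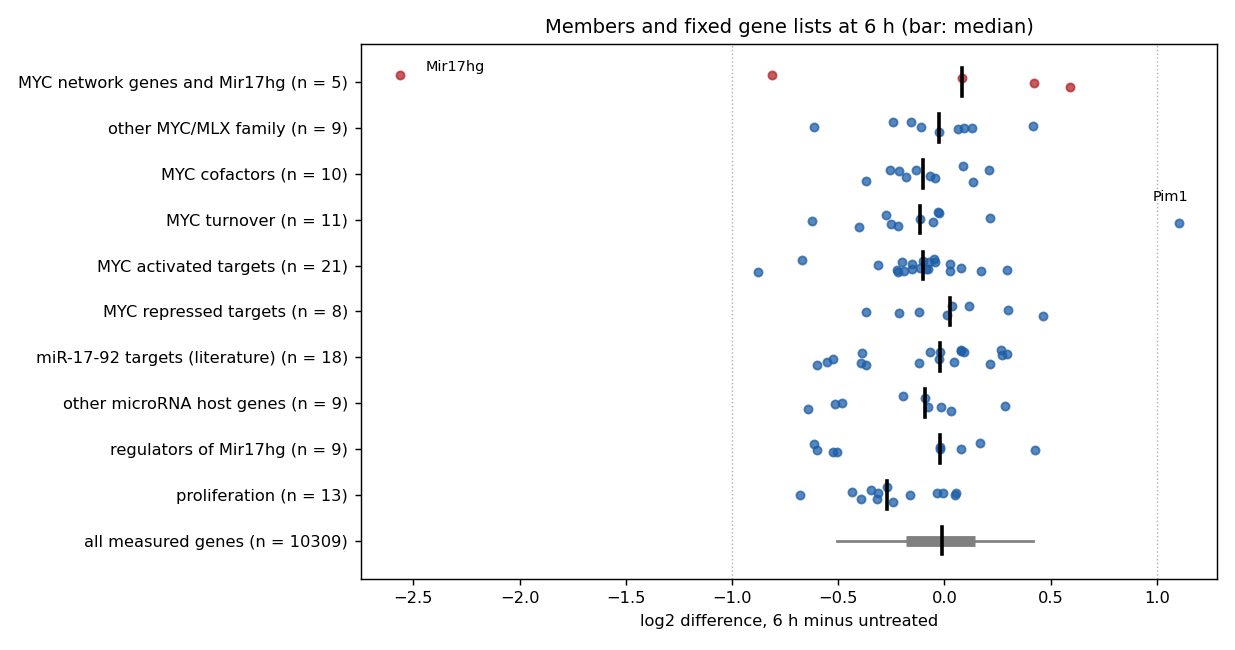
Log2 difference of 6 h minus untreated for the 5 measured members (red) and for the measured genes of the 9 lists (blue), 1 point per gene, with a black bar at each median; the grey bar holds the middle of all 10309 measured genes (from -0.18 to 0.15) and the thin line runs from the 5th to the 95th percentile (from -0.50 to 0.42). Mir17hg at -2.56 and Pim1 at 1.10 are the points beyond the dotted lines of the 2-fold rule.

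Of 16 listed host genes of other microRNAs 9 were measured and 0 were called at any time. Mcm7, a replication helicase subunit whose intron holds the related miR-106b-25 cluster, stood at -0.15, -0.24 and -0.48 at 1, 4 and 6 h, with Cy5 alone at -1.07 and Cy3 alone at -0.59 for 6 h. Mir22hg stood at 0.20, -0.35 and -0.64, and its Cy3 alone at 0.27, 0.74 and 0.50. Smc4, a condensin gene that hosts miR-15b and miR-16-2, stood at 0.12, -0.02 and 0.03. Ctdsp2, a phosphatase gene that hosts miR-26a-2, was highest at 6 h with 0.29. Among genes on noncoding RefSeq records, 0 of 212 measured were called at 1 h. Mir17hg was the 1 gene of 211 called at 4 h, which is 0.474% called lower against 0.213% of all measured genes. At 6 h 5 of 209 were called lower, which is 2.39% against 0.466% of all measured genes, 0 were called higher, and Mir17hg was the lowest. Mir17hg was chosen with its values known, so nothing is read from these shares about noncoding records. The other 4, named after their values were seen, were Gm8801, Dancr, H2-Q5 and Kcnq1ot1.

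The genes most like Mir17hg were sought among 10112 genes measured in all 3 comparisons, by the Euclidean distance over the 3 log2 differences. The nearest 5 were the chemokine receptor gene Cxcr3 (distance 0.84), Id2 (0.87), Trib1 (0.89), the fractalkine receptor gene Cx3cr1 (0.90) and Id3 (1.01). Id2 and Id3, inhibitors of helix-loop-helix factors, had 6 h differences of -2.15 and -1.65, and Trib1, an adaptor for degradation of C/EBP factors, had -2.00. In Id2, Trib1, Cx3cr1 and Id3 Cy5 alone moved by -2.26, -1.70, -1.58 and -2.00 at 6 h. In Cxcr3 the 6 h values were -0.38 for Cy5 alone and 1.49 for Cy3 alone. Whether spot brightness shared by the channels accounts for these was not tested. By the same measure the genes nearest to Myc were Dpysl5 (0.012), Tut1 (0.046), Atmin (0.050), Plekhm3 (0.053) and Plxna2 (0.065). The 3 differences of a gene share the untreated array.

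Markers of cell types other than macrophages gave signal on these arrays, at levels that differed between them. The summed processed Cy5 signal of 14 intestinal epithelial and Paneth cell markers was 5177 in untreated cells and 13068, 7351 and 7439 at 1, 4 and 6 h, and 5 of the 14 measured were called higher at 1 h. At 4 h 3 of the 14 were called higher, and at 6 h 4 of the 13 measured then were. The shares of all measured genes called higher were 0.328%, 0.242% and 0.456%. The marker lists of other organs were written with earlier results of these arrays known, so nothing is read from their counts of calls. Lct, at -1.71 at 4 h, was the 1 intestinal marker called lower. A sum weighs the brightest markers most. The median difference of the measured intestinal markers was 0.61, 0.31 and 0.48 at 1, 4 and 6 h. Their median in Cy5 alone was 0.22, 0.01 and -0.18, beside 0.06, 0.05 and 0.04 for all genes. The 6 exocrine gland markers summed to 499, 1579, 633 and 2923, and 2, 0 and 3 of 4 measured were called higher at 1, 4 and 6 h. Amy2a5 and Prss2 of this list were not measured at any time, with processed Cy5 signals of at most 7.64 and 7.94. The exocrine sum thus came almost wholly from Sycn, Klk1, Klk1b5 and Cela1. The 8 smooth muscle and stromal markers summed to 1657, 2819, 5184 and 4124, and 0, 2 and 2 of 5 measured were called higher at 1, 4 and 6 h. The 7 lymphocyte markers summed to 926, 1056, 802 and 1094, none was called, and Cd79a, Ms4a1 and Cd8a were not measured at any time. The 8 macrophage markers with a processed value on every array summed to 22632, 25373, 22834 and 26992, and 0 of 6 measured at 6 h were called. The exocrine sum was highest on the 6 h array, where Mir17hg was lowest, while the intestinal sum was highest at 1 h and the smooth muscle sum at 4 h. Their part in the values of Mir17hg was not tested. Arrays lay on the slide in the order of time, which leaves the effects of slide position and of time inseparable.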

How the data were processed

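Gene expression was measured on 4 two-colour Agilent arrays, 1 per group. Per the file headers and the submitters' processing notes, the scanned images went through Agilent Feature Extraction 10.5.1.1. The deposited files give intensity values (median brightness of spot and local background) and processed signals, background-subtracted and dye-normalized by the scanner software. They also give a log10 ratio of Cy5 over Cy3, which the deposited table of the whole series repeats, uncentred, for 43020 features. Other steps are not given in the sources used here.

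Median intensities were corrected with normexp (offset 50) and normalized by loess within arrays in limma 3.58.1 under R 4.3.3. Control spots and outlier spots (1.55% to 1.84% on an array) were dropped, and none was saturated. Probes took gene names by accession from RefSeq on GRCm38.p6, which named 27655 of 39429 and left 11774 unnamed, giving 20971 genes. For each comparison a probe had to be well above background in Cy5 and Cy3 of the treated and the untreated array, and the probes of a gene that passed were averaged. Channels alone are after Aquantile normalization. Tables were made in Python 3.11.15 (pandas 2.3.3, numpy 2.4.6) and plots with matplotlib 3.10.9. The steps were run on simulated arrays made from the untreated array with added spot noise and known changes. This was a check of the code and not of the results here.

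The members and lists were chosen with earlier results of these data known. Named genes were the members, the 5 genes nearest to Mir17hg and to Myc and, per list, those past the rule, the highest and lowest at 6 h and the first 3 measured; 1 gene under this rule is not reported here. With 1 array per group the number of arrays limits the precision.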

Additional observations from a re-analysis of the deposited data

How the results depend on the processing

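With 1 array per group no array could be left out, and No paired analysis was possible because each group has 1 array and the labels give no replicate numbers. Mir17hg at 1, 4 and 6 h read -0.33, -1.73 and -4.50 in processed signals, the same in the deposited ratio table, -0.29, -1.54 and -3.66 with an offset of 0, -0.25, -1.21 and -2.33 in Cy5 alone, 0.41, -1.35 and -2.81 with median centring, and -0.22, -1.25 and -2.16 with scale normalization between arrays, an alternative chosen after seeing the data. Aquantile leaves ratios as they are by construction. Keeping outlier spots moved Mir17hg by less than the spot SD. Keeping dim spots or taking the brightest probe could not move it, since its 1 probe was well above background on every array. The number of members past the rule was 2 in place of 1 at 4 h in Cy5 alone, where Mnt joined Mir17hg at -1.10, and 2 in place of 0 at 1 h with median centring. With a 1.5-fold rule it was 2 at 4 h and 3 at 6 h.

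Counts over all measured genes, 34 higher and 5 lower at 1 h, 25 and 22 at 4 h and 47 and 48 at 6 h, were 117 and 42, 144 and 99, and 229 and 195 in processed signals, and 146 and 98 at 4 h in the deposited table. With an offset of 0 they were 38 and 44 at 4 h and 81 and 102 at 6 h. In Cy5 alone they were 39 and 70, 49 and 118, and 159 and 217. With median centring they were 3030 and 0 at 1 h and 41 and 110 at 6 h, where the median of all genes stood at 0.86 and -0.15. With a 1.5-fold rule they were 136 and 48, 142 and 151, and 212 and 359. With scale normalization they were 64 and 16 at 1 h, 46 and 23 at 4 h and 69 and 49 at 6 h. Lower genes at 1 h were 3 without the filter on dim probes and 8 with the brightest probe. Of the called genes 87.2%, 53.2% and 49.5% were higher at 1, 4 and 6 h, against 35.8% and 29.3% at 1 and 4 h in Cy5 alone, 73.6% at 1 h in processed signals, 100% at 1 h and 27.2% at 6 h with median centring, and 66.7% at 4 h with scale normalization. The cause of these shifts was not tested. Of the other members, Mxd1 at 4 h read -0.14 with the brightest probe, and Myc at 6 h -0.11 in Cy5 alone and -0.07 with median centring.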

Other observations

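The E-box letters CACGTG, to which MYC and MAX dimers are known to bind, were looked for on both strands in the 300 bases around each RefSeq start on GRCm38.p6. They stood in the window of Max and in that of Mnt, and in 7.15% of 32851 windows of all genes. The windows of Mxd1 and Mir17hg and the 3 windows of Mxi1 did not hold these letters, and Myc has no window here. The looser letters CANNTG, which every CACGTG also matches, stood in 72.3% of all windows. They stood in those of Max, Mnt and Mir17hg and in 2 of the 3 of Mxi1, and not in that of Mxd1. The Mir17hg window is cluster sequence rather than the promoter of the primary transcript, so what it holds does not describe that promoter. A match is a description of letters and not of binding.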
